A study of Vigna radiata with 42 samples.

Results

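Mung bean leaves (Vigna radiata, cultivar Weilv 9) from plants salted once before were set against leaves of plants salted for the first time, both after 48 h of the final 100 mM NaCl. The difference is taken from 6 of the 42 libraries, those sampled at 48 h. The other libraries enter its test only through the estimate of variance shared by all groups. T1 seedlings (3 libraries, pre-conditioned salt) spent 24 h in 100 mM NaCl, recovered for 48 h in half-strength Murashige and Skoog solution free of NaCl, and were then salted again. T2 seedlings (3 libraries, direct salt) met NaCl only in the final treatment. Poly(A) RNA came from the first fully expanded true leaves of plants grown hydroponically, and all groups share the cultivar, the final salt and the growth conditions. Of the 28740 gene IDs in the table, 17877 reached a value of 1 in 3 or more of these 6 libraries and were tested (62.2%). This time point was chosen because earlier results of these data showed more differences there than at the other times under salt.

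Salt reaches a leaf in overlapping phases. Water becomes harder to take up first, and abscisic acid and related signals close stomata and switch on protective genes; sodium and chloride then accumulate, and their export from the cytosol or storage in the vacuole becomes limiting. Plants that have met a mild stress can respond differently to a later one, which is called priming or stress memory, and the design asks whether earlier salt leaves such a difference. The table does not pair its IDs with gene names, and 0 of them matched the RefSeq gene list for mung bean. The genes below are therefore described by their levels and courses, with no function given, and the leaf label could not be checked against named marker genes.

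At 48 h each library lay nearer to those of its own treatment than to those of the other. The mean correlation of each T1 library with the other T1 libraries was 0.98, 0.983 and 0.979, against 0.935, 0.946 and 0.959 with the T2 libraries. For the T2 libraries it was 0.987, 0.982 and 0.984 within T2, against 0.947, 0.943 and 0.949 with T1. T1 replicate 3 lay nearest to T2 and also nearest to the T1 libraries of 24 h, with a mean r of 0.947, against 0.909 and 0.922 for T1 replicates 1 and 2. The number of genes reaching a value of 1 was 17724 ± 55.3 in T1 and 17748 ± 298 in T2 (SD, n = 3 each), with p = 1 in a two-sided exact permutation test whose smallest possible p is 0.1. The 10 genes with the highest values held 14.6% of the signal in T1 and 12.8% in T2 (exact permutation p = 0.3), and IDs with an Mt prefix held 0.00139% and 0.00167% (p = 0.5). IDs with a Pt prefix held 0.788%, 0.24% and 0.239% in the T1 libraries, against 0.194%, 0.142% and 0.18% in the T2 libraries (exact permutation p = 0.1, and 0.4 adjusted over the 4 measures). The part of this share in the results below was not tested, and the counts without T1 replicate 1, the library with the most Pt signal, are given with them. Relative depth, read from the commonest ratio of the low values, ran from 0.786 to 1.2 times the median of the 6 libraries.

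At 48 h, 4687 genes differed between pre-conditioned and directly salted leaves, or 26.2% of those tested. Of these, 2739 were higher in T1 (15.3% of genes tested) and 1948 were lower (10.9%), by limma at an adjusted p under 0.05. The excess of higher genes depended on the scaling: 2104 were higher and 1944 lower with the same total in every library, and 2494 and 2294 under quantile normalization. Most differences were modest: the median was 0.56 on the log2(value + 1) scale among the higher genes (1.47-fold) and -0.57 among the lower genes (1.49-fold). Large differences lay mainly on the higher side. At least 2-fold differences were found for 458 higher genes (2.56% of genes tested) and 255 lower genes (1.43%), at least 4-fold for 115 and 25, and at least 16-fold for 20 and 0. The largest difference upward was 8.13 and the largest downward was -3.05. In 2554 of the 2739 higher genes every T1 library was above every T2 library, and in 1887 of the 1948 lower genes every T1 library was below; over all genes tested, 24.5% had T1 wholly above T2 and 23.3% wholly below. The higher genes took 19.7%, 18% and 16.2% of all signal in the T1 libraries, against 10.1%, 11.6% and 10.4% in the T2 libraries. The lower genes took 7.85%, 7.75% and 8.91% in T1, against 14.1%, 13% and 14.7% in T2. The same libraries chose these genes, so the direction of the shares and the lack of overlap follow at least in part from that choice.

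**Figure D1:**
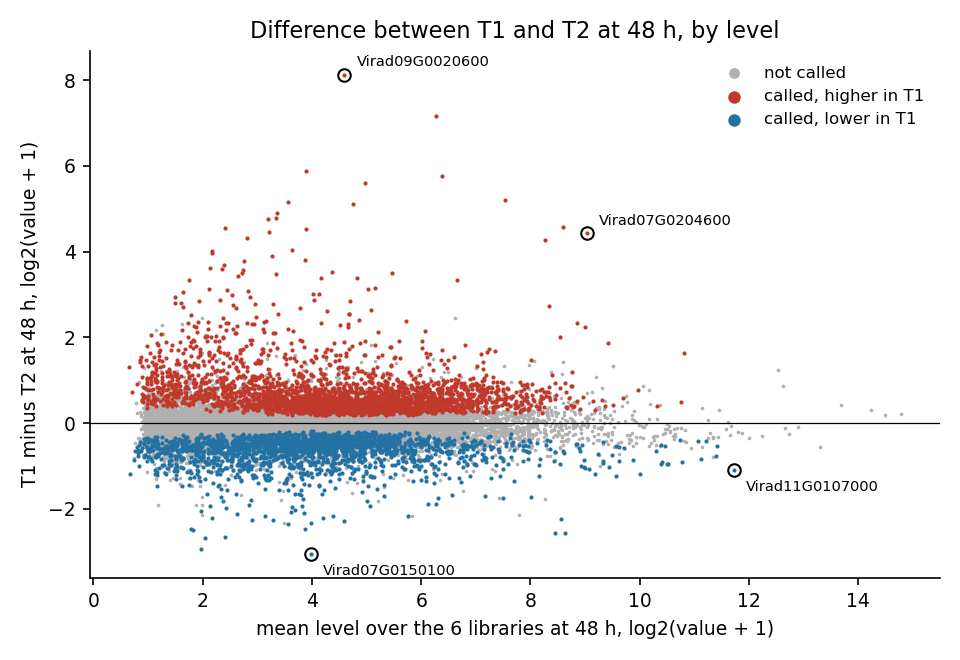
Each point is 1 of the 17877 genes tested, with its mean level over the 6 libraries at 48 h on the x axis and T1 minus T2 on the y axis, both in log2(value + 1). Red points were called higher in T1 (2739), blue points lower (1948) and grey points were not called; circles mark the 4 named genes, and differences above 4 occur only on the higher side.

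The count depended on which library of 48 h was left out. It was 2793 without T1 replicate 1, 2952 without T1 replicate 2 and 4800 without T1 replicate 3. Without T2 replicates 1, 2 and 3 it was 3216, 3793 and 3358. Without T1 replicate 1, 1695 genes were higher and 1098 lower; 1054 were lower without T1 replicate 2, and 1230 and 1256 without T2 replicates 1 and 3. The at least 2-fold higher genes numbered 305 without T1 replicate 1, and the at least 2-fold lower genes 394 with a pseudocount of 0.1.

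**Figure D2:**
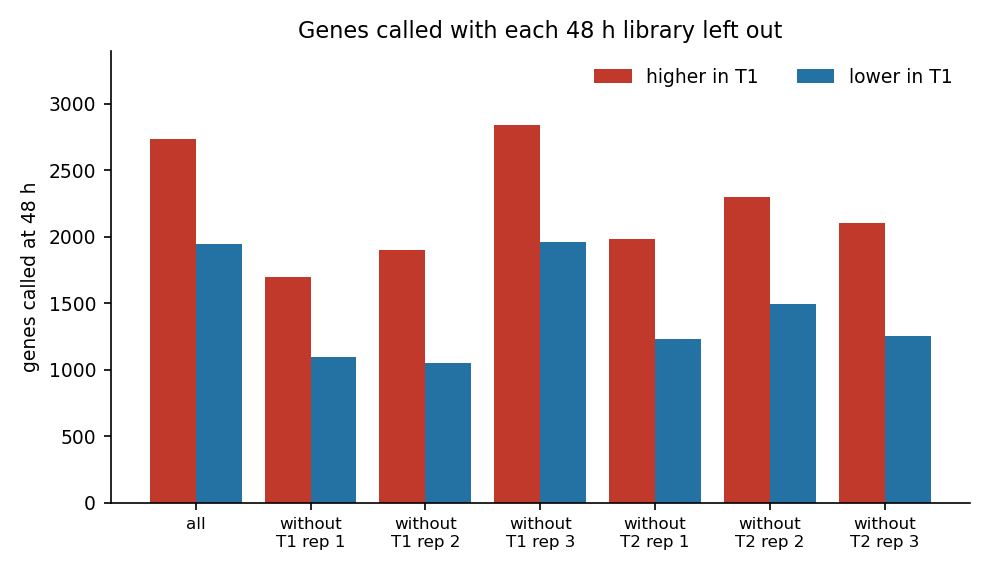
Bars give the number of genes called higher (red) and lower (blue) in T1 at 48 h, with all libraries and with each of the 6 libraries at 48 h left out in turn. Without T1 replicate 3 the counts are 2842 and 1958, without T1 replicate 1 they are 1695 and 1098, and the higher genes outnumber the lower ones in every bar.

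The direction of the differences varied with expression level. Among 2923 genes with a mean value between 50 and 500 over the 6 libraries, 23.6% were higher in T1 and 9.34% lower. Among the 212 genes with a mean of 500 or more, 8.96% were higher (19 genes) and 17.9% lower (38 genes). The most abundant leaf transcripts were thus called lower in T1 more often than higher. For differences of at least 2-fold the shares in this class were close, at 4.25% higher (9 genes) and 5.19% lower (11 genes). The 10793 genes between 5 and 50 had 15.3% higher and 11.6% lower, close to the shares over all genes, and the 3949 genes under 5 had 9.57% and 9.7%.

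A small group of transcripts was present in 1 treatment and nearly absent in the other. There were 49 genes with a mean of at least 5 in T1 and under 1 in T2, and 8 with the reverse pattern. At 48 h 47 of the 49 were called higher and 5 of the 8 lower, beside 15.3% and 10.9% of all genes tested. The means at 48 h chose both sets, and the genes not called differ in mean value only. The T1 means of the 49 had a median of 10.9 and reached 669.8. In 13 of the 49 the T1 mean was at least 5 at 0 h as well, and in 20 it was at 24 h. In 6 of the 8 genes with the reverse pattern the T2 mean was at least 5 at 0 h, and in 2 it was at 24 h. Both treatments had been under 1 at 0 h in 17 of the 49 and in 0 of the 8.

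Of 3910 called genes with a mean of at least 5 in the higher treatment and no overlap between treatments, 4 are named: in each direction the gene with the largest log2 difference and the gene with the largest difference in mean value. The gene with the largest difference upward was Virad09G0020600. It stood at 140, 293 and 1577 in the T1 libraries, against 0.526, 0.071 and 0.834 in the T2 libraries. Every T1 library was far above every T2 library, and T1 replicate 3 was well above the other T1 libraries. The difference was 8.13 on the log2(value + 1) scale (SE 1.33, limma adjusted p = 7.48e-05), 7.14 without T1 replicate 3, 8.88 without T1 replicate 1 and 9.76 with a pseudocount of 0.1. At 24 h it was already 8.89 (adjusted p = 0.000581), from 4482, 1047 and 386 in T1 against 1.37, 0.608 and 3.45 in T2. Every T1 library was also above every T2 library at 3, 6 and 12 h. The differences then were 3, 4.96 and 3.49 and were not called (limma adjusted p = 0.264, 0.175 and 0.349). At 0 h, before the final salt, T1 stood at 804, 13.9 and 174 and T2 at 1.38, 35.8 and 4.48; these overlap and were not called (adjusted p = 0.0673).

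Virad07G0204600 had the largest difference in mean value among the genes higher in T1. Its values were 2247, 1909 and 3332 in the T1 libraries, against 123, 118 and 96.1 in the T2 libraries, or 2496 ± 743 and 112 ± 14.3 (SD, n = 3 each). The difference was 4.43 (SE 0.68, limma adjusted p = 3.73e-05) on the log2(value + 1) scale. From 0 to 48 h it rose in both treatments, by 4.33 in T1 (adjusted p = 4.03e-06) and by 1.93 in T2 (adjusted p = 0.0213), from 206, 46.4 and 179 in T1 and from 24, 59 and 16.1 in T2 at 0 h. These changes share the 48 h libraries with the difference itself.

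Virad07G0150100 had the largest difference downward. It stood at 1.5, 9.98 and 5.02 in the T1 libraries, against 66.5, 48.7 and 26.8 in the T2 libraries, with no overlap. The log2 difference was -3.05 (SE 0.44, limma adjusted p = 1.88e-05), -2.48 without T1 replicate 1. It was already lower in T1 at 24 h, at 2.04, 15.7 and 9.75 against 41, 68.4 and 39.4 in T2 (-2.58, adjusted p = 0.00149). At 0 h the treatments stood at 90.5, 59.5 and 66.6 in T1 and at 130.3, 124 and 116 in T2. Every T1 library was thus already below every T2 library before the final salt. That log2 difference of -0.79 was not called (limma adjusted p = 0.268). From 0 to 48 h the log2 change was -3.71 in T1 (adjusted p = 4.61e-08) and -1.46 in T2 (adjusted p = 0.0081).

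Virad11G0107000, an abundant transcript, had the largest difference in mean value among the genes lower in T1. It stood at 2406, 1653 and 3094 in the T1 libraries, against 4992, 3415 and 7060.5 in the T2 libraries, a log2 difference of -1.1 (SE 0.33, limma adjusted p = 0.0131). The lowest T2 library lay close to the highest T1 library. The call was lost without T1 replicate 2 (adjusted p = 0.0973) and without T2 replicate 3 (adjusted p = 0.0949), and its adjusted p ran from 0.00691 to 0.0973 over 19 alternatives. Its difference of -0.31 at 24 h was not called (adjusted p = 0.635), and at 3 h it had been higher in T1 (1.38, adjusted p = 0.0431), when 0.302% of all genes tested were called higher.

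**Figure D3:**
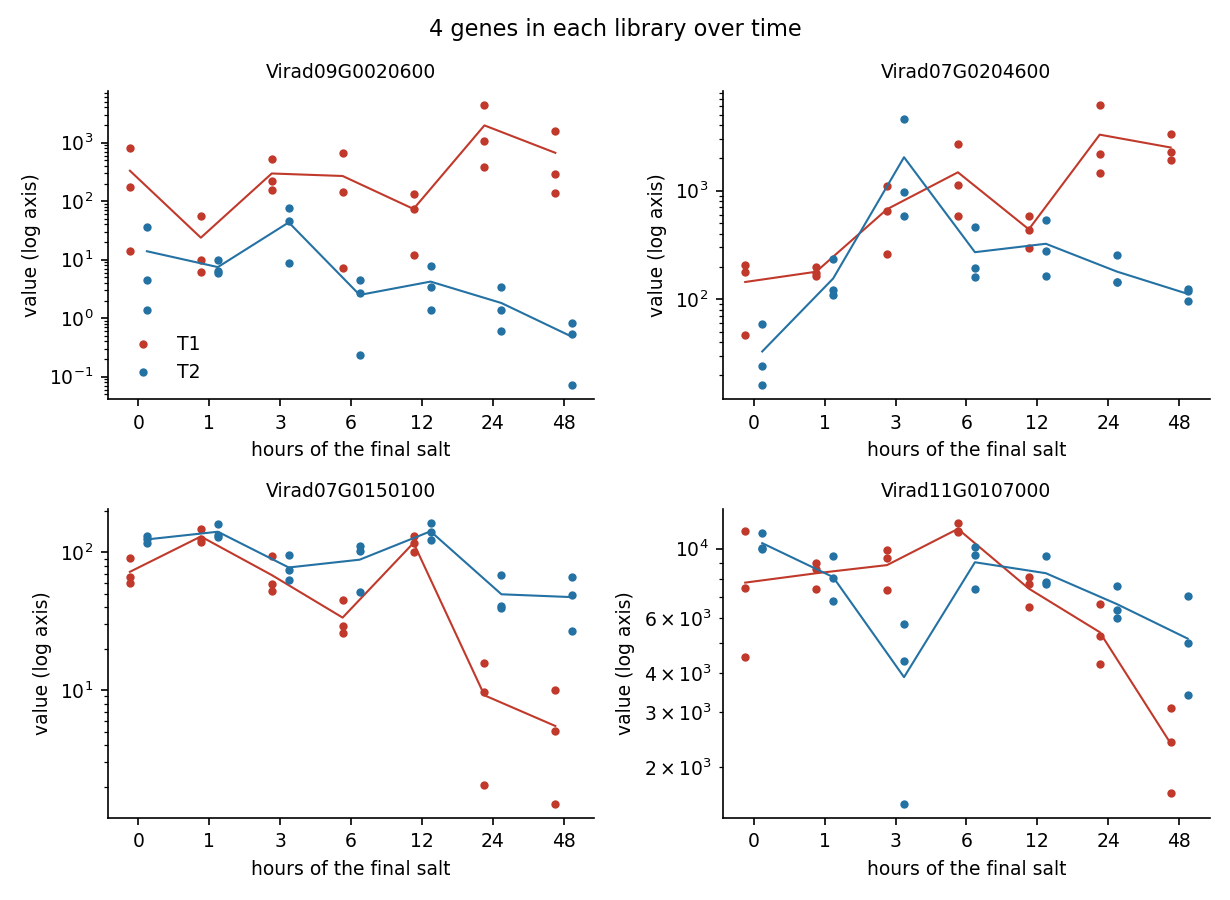
Points are single libraries and lines are group means of the deposited values on a log axis, for T1 (red) and T2 (blue) at the 7 sampling times, which are evenly spaced on the x axis. At 48 h the treatments do not overlap in any of the 4 genes, whereas at 1 h they overlap in each of them.

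Virad07G0204600 belonged to an unbroken run of 10 tested genes whose IDs follow each other in number, from 2 before it to 7 after it. The run was noticed after the values were seen, so it is described without a test of its own. Its ends were set where the next tested gene was not called at least 2-fold higher in T1. That all 10 were called so, beside 2.56% of all genes tested, is therefore its definition and not a result. It was the longest such run in the table. Their log2 differences ran from 1.53 to 5.75 and their ratios of mean values from 18.5 to 62.3. Levels within the run differed widely: the weakest gene stood at 2.27, 1.76 and 2.28 in T1 and at 0.129, 0.064 and 0.02 in T2, and the strongest was Virad07G0204600 itself. In all 10 the treatments did not overlap. 1 further ID in the same number range was listed at 0 in all 42 libraries. No genome build or position was at hand, so the numbers show the order of the IDs only, and whether these genes resemble each other enough to share reads was not analysed here.

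The 10 genes summed to 6333, 5352 and 9437 in the T1 libraries at 48 h, against 311, 296 and 247 in the T2 libraries. That was on average 0.736% of all signal in T1 and 0.0305% in T2. At 0 h, before the final salt, the sums were 586, 99.2 and 455 in T1 and 47.6, 152 and 30.4 in T2. They overlapped, and 1 of the 10 was called higher, beside 2.03% of all genes tested. At 24 h the treatments were fully separated, with sums of 18971, 6057 and 4213 in T1 and 398, 364 and 662 in T2. All 10 were called higher then, beside 1.45% of all genes tested. At 6 h the sums were 6339, 2549 and 1467 in T1 and 309, 986 and 457 in T2, also without overlap. The treatments did not overlap in 9 of the 10 genes then, and 1 was called higher, beside 0.0448% of all genes tested. Directly salted leaves had their highest sums early: at 3 h the sums were 628, 1453 and 2621 in T1 and 2291, 10229.9 and 1309.5 in T2, where T2 replicate 2 was several times above the others and none of the 10 was called. At 12 h the treatments overlapped, at 707, 996 and 1338 in T1 and 1145, 578 and 295 in T2. Each T2 sum at 3 h was thus above every T2 sum at the other 6 times, while every T1 sum at 24 and 48 h was 4213 or more, a level that 1 T1 library reached at the other times, at 6 h.

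**Figure D4:**
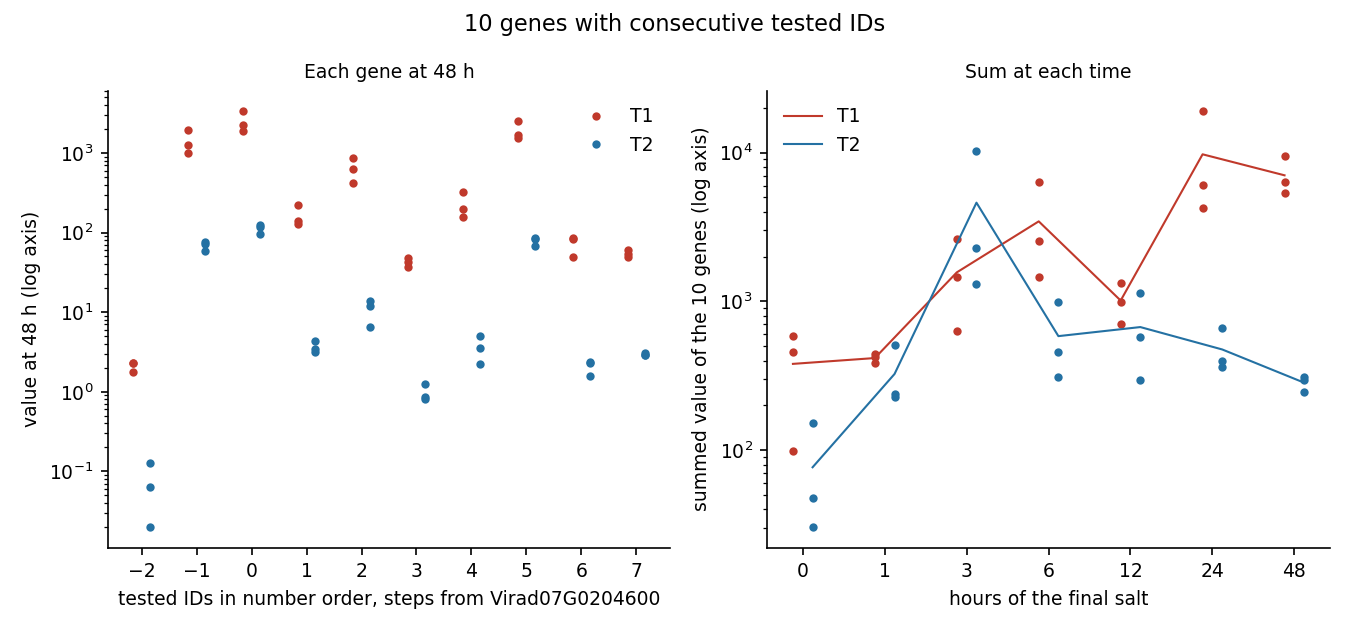
Left, the value of each of the 10 genes in each library at 48 h (log axis), in the order of their ID numbers, counted in steps from Virad07G0204600; right, the sum of the 10 in each library (points) and its group mean (lines) at the 7 times, evenly spaced. T1 (red) lies above T2 (blue) for all 10 genes at 48 h, and the T2 sum peaks at 3 h.

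Other neighbours in ID number were also called together. Outside the run, the next tested ID after a gene at least 2-fold higher in T1 was also at least 2-fold higher in 8.04% of cases, beside 2.51% of the genes tested outside it. For genes at least 2-fold lower the share was 9.8%, beside 1.43%. For all called genes the shares were 18.2%, beside 15.3%, for higher genes outside the run and 14.8%, beside 10.9%, for lower genes.

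The genes that differed at 48 h were followed back through the other 6 times. The libraries of those times do not enter the difference at 48 h. They do enter the variance of its test, and so had a part in which genes were called. At 24 h, 115 of the 2739 higher genes were already higher in T1 (4.2%, beside 1.45% of all genes tested) and 10 were lower. Of the 1948 lower genes, 87 were already lower (4.47%, beside 1.5%) and 5 were higher. Most genes that differed at 48 h were therefore not called at 24 h, and their median difference then was 0.04 for the higher genes and -0.12 for the lower genes, against -0.01 over all genes. Genes called at 24 h had mostly smaller differences at 48 h. The 260 genes higher at 24 h had a median difference of 1.09 at 24 h and 0.56 at 48 h, and 44.2% of them were called higher at 48 h. The 269 lower genes had medians of -0.87 and -0.35, and 32.3% were called lower. These sets were chosen by their 24 h values, which by itself makes the 24 h median the larger. The 115 genes higher at both times had medians of 1.38 at 24 h and 1.31 at 48 h, and the 87 lower at both -0.9 and -0.9.

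Whether the treatment difference at 48 h differed from that at 24 h was tested directly. It did in 1487 genes (8.32% of genes tested), 1108 with a more positive difference at 48 h (6.2%) and 379 with a more negative one (2.12%), by limma at an adjusted p under 0.05. The time of 48 h was itself chosen for its many differences between the treatments, so the count of 1487 may follow in part from that choice. This test also uses the same 48 h libraries that chose the higher and lower genes. The counts that follow therefore describe those sets, and nothing is read from their size. Among the 2739 higher genes, 972 (35.5%) were called with a more positive difference, and their median difference was -0.09 at 24 h and 0.61 at 48 h. Of the 1948 lower genes, 286 (14.7%) were called with a more negative one, with medians of 0.18 at 24 h and -0.65 at 48 h. All 4 named genes and all 10 genes of the run were outside this set; their adjusted p for a change between the times was from 0.299 to 0.84 in the named genes, with Virad11G0107000 at 0.299 and Virad09G0020600 at 0.84. The total was 546 when T1 48 h replicate 1 was left out, 944 when T1 48 h replicate 2 was, 717 when T2 24 h replicate 3 was and 842 when T2 48 h replicate 1 was. The more negative differences were 241 with T2 48 h replicate 3 left out, 225 with T1 24 h replicate 3 left out and 580 with T1 0 h replicate 2 left out. They were also 225 with every library scaled to the same total, and 752 where the fit held the 4 groups alone.

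Which treatment had moved was read from each one's own change between 24 and 48 h. These changes share the 48 h libraries with the comparison, so the values are given side by side and nothing is drawn from their overlap. Among the 2739 higher genes the median change was 0.46 in T1 and -0.03 in T2, and 62.9% rose in T1 (22.3% of all genes tested), against 9.86% in T2 (16.7% of all genes). In T2 18.3% fell (16.2% of all genes). T1 rose and T2 was not called in 1392 of them (50.8%, beside 13% of all genes tested), and T2 fell and T1 was not called in 377 (13.8%, beside 7.48%). T1 rose and T2 fell in 66 (2.41%, beside 0.408%), and both rose in 266 (9.71%, beside 8.93%). Among the 1948 lower genes the median change was -0.29 in T1 and 0.12 in T2, and 41.8% fell in T1 (16.8% of all genes), against 26.4% that rose in T2. T1 fell and T2 was not called in 559 of them (28.7%, beside 8.37% of all genes tested), and T2 rose and T1 was not called in 397 (20.4%, beside 7.67%). T1 fell and T2 rose in 19 (0.975%, beside 0.123%), and both fell in 236 (12.1%, beside 8.29%). Neither treatment was called in 570 of the higher genes (20.8%) and 628 of the lower genes (32.2%), beside 45.8% of all genes. A missing call in 1 treatment does not show that it did not change.

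The same genes were set against the 0 h group of their own treatment. At 48 h both changes use the libraries that chose the genes, so a larger change in 1 treatment follows in part from that choice. For the higher genes the median change from 0 h was 0.59 in T1 and 0.11 in T2; 76.4% rose in T1 (30.6% of all genes tested) and 28.8% in T2 (23.2%). For the lower genes it was -0.44 in T1 and -0.05 in T2; 58.8% fell in T1 (21.2% of all genes) and 25.6% in T2 (20.3%). The median over all genes was 0.06 in T1 and 0.02 in T2. Genes at least 2-fold higher in T1 had a median change of 1.52 in T1 and 0.12 in T2. The libraries of 1 and 3 h enter the 48 h comparison only through the shared variance. At 1 h the same 458 genes had a median change of 0.33 in T1 and 0.73 in T2, and at 3 h of 0.35 in T1 and 0.58 in T2. By 6 h the medians were 0.05 in T1 and 0.03 in T2. The 255 genes at least 2-fold lower had a median change at 3 h of 0.03 in T1 and -0.68 in T2, and at 48 h of -0.88 in T1 and -0.05 in T2.

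The difference between the treatments in these genes was also followed over the earlier times. The median difference of the higher genes was 0.06 before the final salt. It was -0.07 after 1 h and -0.06 after 3 h, then 0.13 after 6 h, 0.01 after 12 h and 0.04 after 24 h. Before the final salt, 98 of them were called higher and 28 lower (2.03% and 3.21% of all genes tested). Over all genes the medians lay between -0.04 and 0.01. At 6 h 76.3% of the higher genes had a difference above 0, against 51.7% of all genes, though only 4 were called (0.0448% of genes tested were called higher at 6 h). At 1 h the share was 35.1%, against 45.3% of all genes, and 149 were called lower in T1 and 31 higher (5.01% and 3.2% of all genes). The lower genes had a median of -0.15 before the final salt, 0.02 after 1 h, 0.04 after 3 h, -0.12 after 6 h, 0.01 after 12 h and -0.12 after 24 h. At 0 h 16 of them were called higher and 104 lower, and at 1 h 97 higher and 94 lower. At 6 h 71.7% of them lay below 0, against 48.3% of all genes, and at 24 h 72.6%, against 52.7%. Taken relative to all genes, the median at 6 h was 0.121 for the higher genes and -0.125 for the lower genes, beside an SD of that median between libraries of 0.0347 and 0.0571. At 1, 3 and 12 h every such median was within its SD, which ran from 0.0492 to 0.0938. At 24 h the median of the higher genes, 0.0533, was also within its SD of 0.0696. That of the lower genes was -0.11, beside an SD of 0.0868. For the lower genes the median at 3 h was 0.0408, and it was 0.0144 without T1 replicate 1, 0.117 without T1 replicate 2 and 0.0658 without T2 replicate 3. At 1 h it was 0.046, and 0.0252, 0.0726 and 0.0771 without T1 replicate 1, T1 replicate 2 and T2 replicate 2. At 12 h the sign turned without T1 replicate 2 for the higher genes (0.00346 and then -0.00431) and without T2 replicate 1 for the lower genes (0.00884 and then -0.00567). Across all 17877 genes the difference at 48 h had a Pearson r of 0.299 with that at 0 h, 0.414 with that at 6 h and 0.414 with that at 24 h (Spearman rho 0.232, 0.338 and 0.244). With the differences at 1, 3 and 12 h r was 0.0152, -0.189 and 0.18 (rho -0.0537, -0.173 and 0.0382). These are descriptions across genes of the same libraries, and genes are not independent replicates. At 3 h r was thus below 0.

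**Figure D5:**
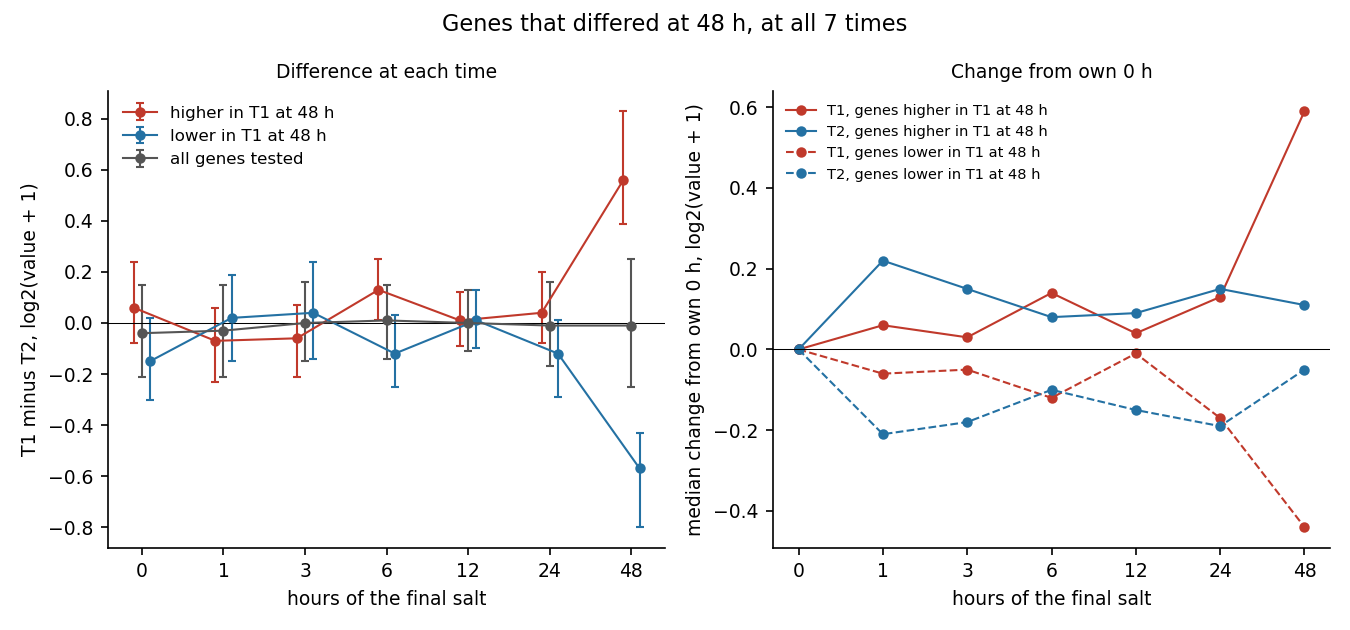
Left, the median (points) and quartiles (bars) of T1 minus T2 at each time for the genes called higher (red) and lower (blue) in T1 at 48 h and for all genes tested (grey); right, the median change from the 0 h group of the same treatment in T1 (red) and T2 (blue), solid for the higher and dashed for the lower genes. Times are evenly spaced, and the 48 h values chose the genes. On the right the T1 and T2 lines lie close at 24 h and widest apart at 48 h, with smaller gaps at some earlier times.

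The 3 libraries of a group are called biological replicates in the series' design text, which does not say whether each is a plant or a pool, so p-values measure the spread between these libraries. The series has no plants without salt at 48 h, and whether T1 and T2 seedlings were of the same age at sampling is not given, so earlier salt, age and handling cannot be told apart. Leaves hold several cell types, and fewer cells of a type and less RNA per cell cannot be told apart in such bulk samples.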

How the data were processed

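Poly(A) RNA of leaves was sequenced on the DNBSEQ platform in 14 groups of 3 libraries. The submitters' processing notes name fastp 1.0.1, HISAT2 2.2.1, featureCounts and DESeq2 1.48.2. Genome build, annotation and read counts are not given in those notes or in the labels. The authors deposited 1 normalized expression signal per gene and library, in a table called TPM. Its columns sum to between 783218 and 1228250, so a further scaling between libraries was applied that the sources do not describe. The absolute depth is unknown for this reason, and there are no counting intervals.

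Values were analysed as log2(value + 1), which makes changes at low values look smaller. Only genes reaching 1 in 3 or more of the 6 libraries at 48 h were kept. limma 3.58.1 (R 4.3.3) fitted the means of the 14 groups to all 42 libraries, with a robust trend in the variance shared by all groups. Its two-sided p-values were adjusted after Benjamini and Hochberg over 17877 genes, and genes with an adjusted p under 0.05 were called. With 3 against 3 libraries an exact permutation test of 1 gene cannot give a p under 0.1. Python 3.11.15, numpy 2.4.6, pandas 2.3.3, scipy 1.17.1 and matplotlib 3.10.9 were used for the rest. In data simulated with 17877 genes, log2 changes of 0.5, 1 and 2 were recovered for 36%, 80% and 99% of genes at 48 h, and false calls made up 2.71%. For the change of the difference from 24 to 48 h the shares were 16%, 56% and 93%, with 5.17% false calls. Each size was given to 100 genes, with independent noise and the same SD per gene in all groups. Far more genes were called in the real data, and its groups differ in spread, so these rates need not hold there.

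The 4 named genes follow a rule for IDs without names: in each direction the largest log2 difference and the largest difference in mean value among called genes with a mean of at least 5 and no overlap. The comparison, its lists and its tests were chosen with earlier results of these data known. Lists of genes by product were not run, since the IDs carry no products. Alternatives were other pseudocounts, filters, scalings, moderation, libraries in the fit, a replicate block and each library left out. Leaving out T1 0 h replicate 2 was added after seeing the data.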

Additional observations from a re-analysis of the deposited data

Results flagged for a closer look

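The difference between pre-conditioned and directly salted leaves changed between 24 and 48 h in 1487 genes, by limma's test of that change itself at an adjusted p under 0.05. Of these, 1108 had a more positive and 379 a more negative difference at 48 h. That time was chosen for its many differences between the treatments, so the count may follow in part from that choice. The count ran from 546 to 2062 with 1 library left out, and 1910 genes were called where the fit held the 4 groups alone.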

How the results depend on the processing

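The 4687 genes called at 48 h became 2793 to 4800 with 1 library at 48 h left out, the higher genes 1695 to 2842, the lower genes 1054 to 1958, those at least 2-fold higher 305 to 651 and those at least 2-fold lower 177 to 337. Without T1 0 h replicate 2, which enters the 48 h comparison only through the shared variance, the 5 counts were 5337, 3036, 2301, 481 and 267. Those at least 2-fold lower were 394 with a pseudocount of 0.1. The change of the difference from 24 to 48 h was called in 546 to 2062 genes with 1 library left out, 426 to 1532 more positive and 120 to 530 more negative; without T1 0 h replicate 2 the counts were 1962, 1382 and 580. The more negative ones were 225 with the same total in every library and 752 where the fit held the 4 groups alone. The cause was not tested. The difference in the number of genes detected, -23.67 at a value of 1, was 38.67 at a value of 0.1.

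Replicate numbers did not pair the samples at 48 h, where the deviations of same-numbered T1 and T2 libraries correlated at 0.0108, 0.000506 and -0.0881. At 6 h the same correlations were -0.0189, 0.471 and 0.542 for replicates 1, 2 and 3. With a replicate block, 4557 genes were called at 48 h with the number as 1 term over all libraries and 4159 with a term within each time; for the change from 24 h the counts were 1403 and 1057. The 4 named genes kept their direction under all 19 alternatives each, and Virad11G0107000 was called in 17. With the 48 h groups alone in the fit, the limma adjusted p was 0.00467 for Virad09G0020600 and 0.000344 for Virad07G0204600. It was 0.0131 for Virad07G0150100 and 0.045 for Virad11G0107000. The medians of the called genes at the 6 earlier times, relative to all genes, were taken again under the 3 scalings. They were also taken with each of the 6 libraries of 48 h left out. Each moved by less than the SD of that median between libraries. That SD is as large as several of the medians: those of the lower genes at 3 h ran from 0.0144 to 0.117, and at 12 h from -0.00567 to 0.0189, while those of the higher genes at 12 h ran from -0.00431 to 0.0136. A pseudocount of 0.1, which shrinks low values less, gave 567 genes at least 2-fold higher, against 458. What depth limits could not be read without counts.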
